A study of Mus musculus with 8 samples.

Results

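The response of RAW 264.7 cells to Bacillus clausii was measured on 3 two-colour Agilent arrays, chosen by their titles, out of the 8 arrays analysed here. RAW 264.7 is a macrophage-like mouse line derived from BALB/c mice, and B. clausii is a spore-forming bacterium used as a probiotic. On each array, RNA of cells kept with B. clausii for 6 hours at a multiplicity of infection of 1 carried Cy5, and RNA of untreated cells of the same time point carried Cy3. All cells were grown in serum-containing medium without antibiotic, and the labels give no genetic change in any group. Replicates 1 and 2 were hybridised on one slide together with replicates 1 and 2 of Bifidobacterium bifidum, given to the same line for the same time at the same multiplicity. Replicate 3 was hybridised on the other slide, with B. bifidum replicate 3 and both arrays of Lactobacillus acidophilus. Every ratio below is log2 of treated over untreated cells, for 15182 genes, with saturated spots left out. The labels call the arrays replicates, and nothing ties an array to a culture of its own, so p-values here speak of array-to-array spread alone, part or all of which may be technical. Treated RNA always carried the same dye, so any dye bias of a probe stays in its ratio, and untreated RNA was never hybridised as a sample of its own.

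Macrophages sense bacteria with Toll-like and NOD-like receptors, whose signals reach the transcription factors NF-kB and AP-1 and, through interferon beta, the interferon-stimulated genes. They ingest bacteria into phagosomes that mature by fusing with lysosomes, acidic compartments filled with hydrolases. Sterol supply is balanced by SREBP2, which drives cholesterol synthesis, against the liver X receptors, which drive cholesterol export. Shortage of amino acids or stress in the endoplasmic reticulum phosphorylates the initiation factor eIF2, which raises translation of ATF4 and transcription of its target genes, a pathway known as the integrated stress response.

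The 3 arrays did not resemble each other equally. Replicates 1 and 2 correlated at r = 0.99 over 6269 bright genes, with a standard deviation of 0.076 between their log2 ratios. Replicate 3 correlated with each of them at r = 0.04, and with the other arrays of its own slide at r = 0.58 to 0.67. These are correlations across genes that share a slide and a dye orientation, and genes are not independent replicates. Replicate 3 was a weak array. The scanner software did not rate its grid as good, its repeated spots varied by 67.4% in Cy3 and 72.5% in Cy5, and 12514 probes exceeded background clearly in 1 channel or both. On the other 7 arrays repeated spots varied by at most 21.5% and 21454 to 26453 probes were above background. Log2 ratios beyond 1 in size were found for 323 genes on replicate 1, 318 on replicate 2 and 16 on replicate 3.

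**Figure D1:**
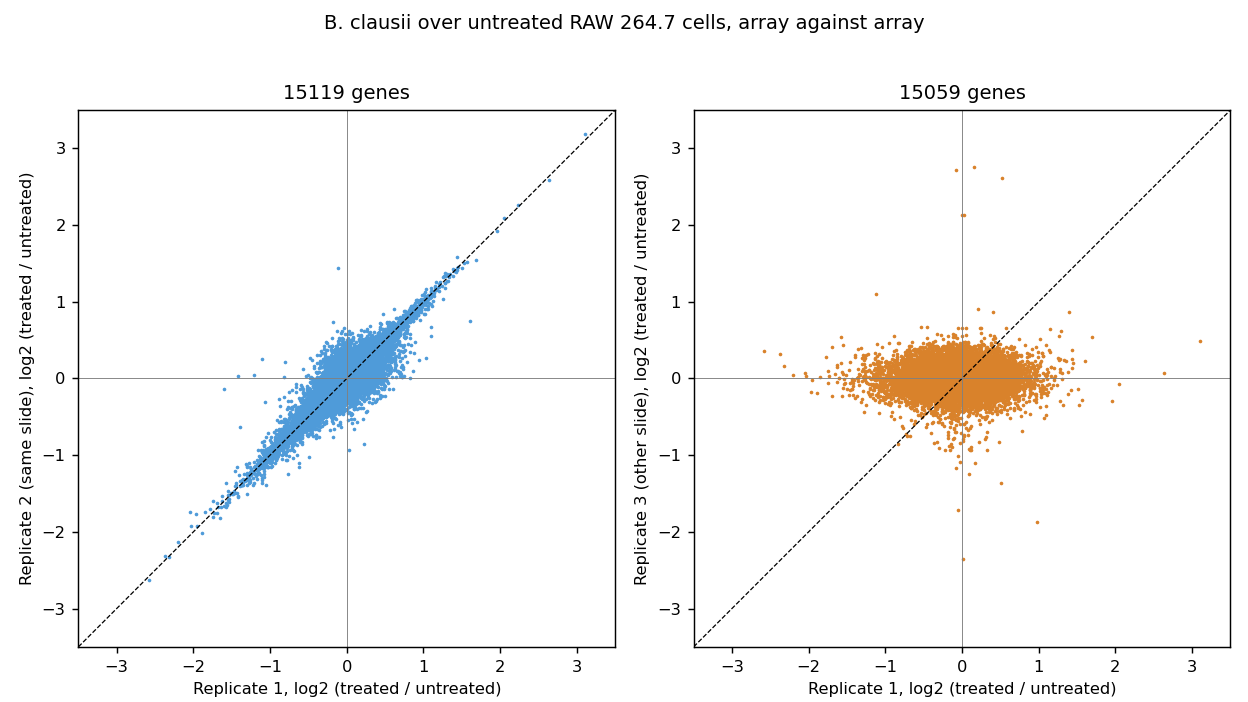
Log2 ratios of treated over untreated cells for B. clausii replicate 1 (x axis) against replicate 2 on the same slide (left, y axis) and against replicate 3 on the other slide (right, y axis). Each point is a gene and the dashed line marks equal ratios. The left cloud follows the line (r = 0.99 over bright genes) and the right one lies flat (r = 0.04).

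The Cy3 signal of untreated cells differed between the slides. The slides were also scanned over different ranges, with a saturation value of 65526 on the first slide and 633884 to 640497 on the other. The part of the scanning in the differences below was not tested. In the Cy3 channel, after normalization between arrays, 265 of 14839 genes (1.79%) were at least 4-fold apart between the slides with no overlap of arrays, 168 brighter and 97 dimmer on the slide of replicate 3. Fabp4, a fatty acid carrier of macrophages and adipocytes, had log2 Cy3 signals of 6.66 and 6.76 on replicates 1 and 2 and 15.54 on replicate 3. The calprotectin subunit gene S100a8, a marker of neutrophils, had 6.89, 7.05 and 16.15. Il1b, which encodes the cytokine interleukin 1 beta, had 6.59, 6.58 and 11.13, and Hprt, a purine salvage enzyme, had 9.36, 9.40 and 12.81. Interferon-stimulated genes went the other way. Rtp4 had 14.51, 14.52 and 8.38, Isg15 had 12.61, 12.72 and 7.90, and 26 of 54 genes of that list were at least 4-fold dimmer on the slide of replicate 3, with a list median of −1.90 against −0.05 for all genes. The macrophage genes Csf1r, Adgre1 and Cd14 were bright on both slides, with 12.26, 12.21 and 11.91, 11.77, 11.65 and 11.85, and 15.24, 15.24 and 16.03 on replicates 1 to 3. Other macrophage markers differed by slide means. The Fc receptor gene Fcgr1 was 7.83-fold dimmer and Lyz2 4.25-fold brighter on the slide of replicate 3. On replicate 3 itself Lyz2 was not brighter, with 11.62, 11.61 and 11.53 on replicates 1 to 3. Arrays of the other strains had Lyz2 at 13.88 to 13.95 on that slide, against 11.58 and 10.1 on the first slide. Both slides are labelled RAW 264.7, and whether the slides held the cells as labelled was not tested.

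**Figure D2:**
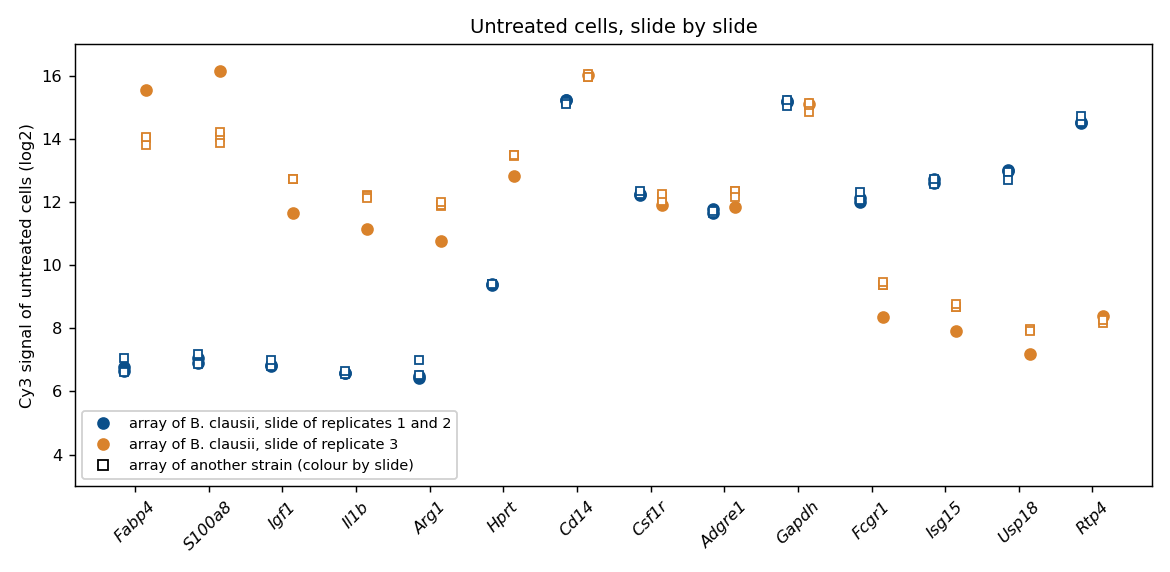
Cy3 signal of untreated cells (y axis, log2) for 14 genes (x axis) on the slide of B. clausii replicates 1 and 2 (blue) and on the slide of replicate 3 (orange). Filled circles are arrays of B. clausii and open squares arrays of the other strains. Fabp4 lies near 7 on one slide and at 13.81 or above on the other, Rtp4 shows the opposite, and Csf1r is alike on both.

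Of the macrophage markers, 8 of 11 were measured, and their summed background-subtracted signal was 29400, 30900 and 14100 in Cy5 and 62800, 61200 and 19200 in Cy3 on replicates 1 to 3. The 6 measured neutrophil markers summed to 232 and 234 in Cy5 on replicates 1 and 2 and to 19200 on replicate 3, where S100a8 alone gave 19000. The 8 osteoclast markers summed to 1450, 1400 and 1360 in Cy5 and 2870, 2730 and 2120 in Cy3. The measured markers of dendritic cells, lymphocytes, fibroblasts and epithelium summed to at most 744 in Cy5 and 1160 in Cy3 on any of the 3 arrays. The 28S ribosomal RNA probe Rn28s1 had log2 ratios of 1.43, 1.58 and 0.25 with B. clausii and 1.66 and 1.38 with B. bifidum on the first slide. In B. clausii replicate 3 neither channel of this probe was well above background, so the 0.25 does not measure an absence of change. The part of these differences in the results below was not tested.

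On the slide of replicates 1 and 2, most genes passed the test, the majority with small changes. Limma called 8455 of 15119 genes (55.9%) at an adjusted p under 0.05, of which 3882 rose (25.7%) and 4573 fell (30.2%). The median rise was 0.32 and the median fall −0.38, and 83 rises and 229 falls passed a log2 ratio of 1 in size. Here and below, "rose" and "fell" refer to this test on replicates 1 and 2, and the value of replicate 3 is given beside it where it was measured. Fdft1, Ifit1, Irf7, Isg15, Rsad2, Slc7a5, Stard4, Tlr1 and Zbp1 were not well above background in either channel of replicate 3, so their values there do not measure an absence of change. Where the arrays were only centred on their median, which leaves the trend of the ratio with brightness in place, 50 genes rose and 3976 fell, and the median of all genes shifted to −0.31, against −0.01 as reported. The split into rises and falls therefore rests on the scaling, and gene lists are read against the median of all genes.

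Replicate 3 did not carry these changes. Of 8404 genes called on the first slide and measured on replicate 3, 4212 (50.1%) had the same sign there. For the 308 beyond a log2 ratio of 1, it was 147 (47.7%). Among genes well above background in both channels of replicate 3 it was 2580 of 4993 (51.7%). The test of the difference between the slides itself called 5868 of 15053 genes (39.0%). Nearly all of the 308 genes beyond a log2 ratio of 1 were among them. They were picked by their size on the first slide, and this test uses the same first-slide values. Their share therefore follows in part from the choice and is not separate evidence about replicate 3. For this test replicate 3 is a single array that is assumed to vary like the others, and with median centring it called 37 genes.

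Among the largest rises were 2 genes of the integrated stress response, Chac1 and Ddit4. Chac1, which encodes an enzyme that degrades glutathione and is a target of ATF4 and CHOP, had background-subtracted signals of 1840 in Cy5 and 395 in Cy3 on replicate 1, 1910 and 364 on replicate 2, and 202 and 246 on replicate 3. Cy3 was the brighter dye overall (median signals over all probes of 20.9 in Cy5 and 45.2 in Cy3 on replicate 1), which normalization removes. Its log2 ratios were 3.11, 3.19 and 0.49, and the mean of replicates 1 and 2 was 3.15 ± 0.05 (SE, n = 2, limma adjusted p = 6.4e-05). Both arrays of the first slide lay far above replicate 3, and above the 0.18 and 0.13 measured with B. bifidum. Ddit4, an inhibitor of the growth kinase mTORC1, had 2.23 and 2.27 and no value on replicate 3. The list had 40 members measured: 23 rose, 9 fell and 8 missed the threshold, and its median was 0.24, 0.21 and 0.00 on replicates 1 to 3. Relative to all genes, the list median of replicates 1 and 2 was 0.25 as reported and 0.16 with median centring.

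Members with different roles took part. Among transcription factors, Ddit3 (CHOP) had 1.03, 1.16 and −0.20, Atf3 had 1.05, 1.01 and −0.11, Nupr1 had 0.91, 1.02 and −0.18, and Atf4 itself had 0.60, 0.60 and −0.21. All 4 rose on the first slide and were below 0 on replicate 3. With median centring Atf4 lay at −0.08 on the first slide, or 0.23 relative to all genes. Slc7a5, a leucine transporter subunit, had a mean of 1.14 on replicates 1 and 2 and 0.03 on replicate 3, and Mthfd2 and Psph, enzymes of one-carbon and serine metabolism, had means of 0.96 and 0.69 on replicates 1 and 2 and 0.30 and 0.26 on replicate 3. Atf5, another factor translated under eIF2 phosphorylation, fell, with −1.16, −1.22 and 0.20, as did the cystine transporter gene Slc7a11, with −0.70, −0.94 and −0.14. Of 20 aminoacyl-tRNA synthetase genes, which charge tRNAs and are also known ATF4 targets, 4 rose and 8 fell, near the 25.7% and 30.2% of all genes.

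The promoters of these genes were searched in RefSeq sequence of build GRCm38.p6, in the 250 bases before the start of each gene and on both strands, for TGATGNAA, the C/EBP-ATF response element bound by ATF4 and CHOP. Of 34 members with a promoter in the table, 8 (23.5%) held it, against 3.91% of 27025 genes. Of the 8, 4 rose and 2 fell, and of the other 26, 16 rose and 6 fell. A match is a description and not a site shown to be bound. The stretches around the element in Chac1 (chr2:119351024-119351081, plus strand), Nupr1 (chr7:126625548-126625605, minus strand) and Atf3 (chr1:191183411-191183468, minus strand) are shown because these 3 genes rose and hold the same 8 letters, in capitals, here on the strand opposite to the motif as written.
Chac1: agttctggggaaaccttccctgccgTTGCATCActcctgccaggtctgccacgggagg
Nupr1: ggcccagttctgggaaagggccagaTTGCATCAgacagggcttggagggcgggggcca
Atf3: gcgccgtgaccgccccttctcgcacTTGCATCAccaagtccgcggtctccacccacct

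Chaperones of the endoplasmic reticulum went partly the same way. Of 27 members of the list of chaperones and the unfolded protein response, 13 rose, 5 fell and 9 did not pass, but the list median relative to all genes was 0.08 as reported and −0.10 with median centring. Herpud1, a component of the degradation machinery of the endoplasmic reticulum, had 1.18, 1.18 and −0.09. Creld2 and Sdf2l1, both induced by unfolded proteins, had 0.72, 0.78 and 0.07, and 0.73, 0.77 and 0.17. Hyou1, a chaperone of the HSP70 type, had 0.61, 0.90 and 0.39 and was above 0 on all 3 arrays. With median centring Creld2, Sdf2l1 and Hyou1 lay at 0.08, 0.06 and 0.07 on replicates 1 and 2. Relative to all genes these were 0.38, 0.37 and 0.38. The oxidase gene Ero1a fell, with −0.84, −0.93 and 0.12. The ER stress response element was searched as CCAAT and CCACG with any 9 bases between them. It was held by 9 of 23 members with a promoter (39.1%) against 0.13% of all genes. Of the 9, 6 rose and 1 fell, and of the other members with a promoter 5 rose and 4 fell. The stretch of Creld2 (chr15:88819495-88819563, plus strand) shows the element in capitals, on the opposite strand.
Creld2: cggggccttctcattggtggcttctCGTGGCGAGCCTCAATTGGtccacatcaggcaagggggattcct

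Of 21 cytokines and inflammatory enzymes, a usual readout of a macrophage response to bacteria, 12 did not pass, against 6664 of 15119 genes tested. Tnf had 0.01, 0.01 and −0.25 (mean of replicates 1 and 2 of 0.01 ± 0.04, SE, n = 2, adjusted p = 0.823, 95% interval −0.09 to 0.11), at signals of 4390 and 8770 in Cy5 and Cy3 on replicate 1. The level of Tnf depended on the scaling, since with median centring its mean was −0.66, or −0.36 relative to all genes. Nos2, which encodes inducible nitric oxide synthase, had 0.02, 0.01 and −0.01, and Il10, an anti-inflammatory cytokine, had 0.05, 0.01 and 0.07. Neither passed. Nos2 was dim, with signals of 40.5 in Cy5 and 56.1 in Cy3 on replicate 1 and 48.1 and 64.4 on replicate 2. Its Cy5 signal on replicate 1 was not well above background, so its ratios there do not measure an absence of change. Il6 was not well above background in either channel of replicates 1 and 2, and Il1b was not in Cy5, so no fold is given for them. Arg1, an arginine-degrading enzyme, was likewise not above background on these 2 arrays. Ptgs2, which makes prostaglandins, rose, with 0.80, 0.77 and −0.27, and Acod1, which makes itaconate, fell, with −0.96, −0.98 and 0.01. Of the 21 genes 5 rose and 4 fell, beside 25.7% rises and 30.2% falls over all genes. Members too dim to measure could not pass. Relative to all genes, the list median of replicates 1 and 2 was 0.03 as reported and 0.37 with median centring. In the untreated channel, 7 of the 21 were at least 4-fold brighter on the slide of replicate 3.

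Single chemokine genes changed in both directions. Cxcl10, a ligand of CXCR3, had 1.08, 1.09 and −0.19, a mean of 1.09 ± 0.05 on replicates 1 and 2 (SE, n = 2, adjusted p = 1.3e-04). Cxcl2, which attracts neutrophils, had 1.01 and 1.09 and no value on replicate 3. Ccl5 had −0.94, −0.99 and −0.34 and lay below 0 on all 3 arrays, and Cxcl14 had −1.26, −1.25 and 0.26. Ccl2, which attracts monocytes, had 0.17, 0.15 and 0.24, a small rise (limma adjusted p = 0.021). With median centring it turned to a fall of −0.51, or −0.20 relative to all genes. Of 16 chemokine genes 5 rose and 6 fell, near the 25.7% and 30.2% of all genes.

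Receptors that sense bacteria were mostly lower. Of 31 pattern recognition receptors and adaptors, 5 rose, 18 fell and 8 did not pass, and the list median was −0.36, −0.34 and −0.04. Tlr2, the receptor for bacterial lipoproteins, had −0.92, −0.90 and −0.11, and its partners Tlr6 and Tlr1 had −1.04, −1.14 and 0.16, and −0.42, −0.54 and −0.05. Nod1, which senses peptidoglycan fragments, had −1.14, −1.02 and 0.26, while Nod2, its relative, rose, with 0.70, 0.59 and −0.06. Tlr4 had −0.36, −0.34 and 0.22, and its lipopolysaccharide-binding partner Ly96 had −0.58, −0.71 and −0.10. Cd14, the co-receptor, had 0.03, 0.05 and 0.02 and did not pass, but lay at −0.58 with median centring. Unc93b1, which carries Toll-like receptors to endosomes, had −1.02, −1.07 and −0.18. Tlr2 and Unc93b1 were below 0 on all 3 arrays.

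Immediate early genes, the transcription factors that respond first to a stimulus, were mostly higher. Of 30 measured, 17 rose, 3 fell and 10 did not pass, with list medians of 0.26, 0.28 and 0.04. Ier3, a survival factor induced by NF-kB, had 1.39, 1.34 and 0.08. The AP-1 subunit genes Jund and Jun had 1.25, 1.32 and 0.27, and 0.94, 0.97 and −0.01, but Fos had −1.31, −1.31 and 0.40. Nr4a1 and Egr2 had 0.94, 0.87 and −0.05, and 0.76, 0.78 and 0.03. Feedback inhibitors of NF-kB also split, since Tnfaip3 rose, with 0.96, 0.90 and −0.20, and Tnip1 fell, with −0.82, −0.76 and −0.31. Of the MAP kinase phosphatases, Dusp4 rose, with 0.85, 0.90 and −0.04, and Dusp6 fell, with −1.48, −1.47 and 0.11.

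Most interferon-stimulated genes fell. Falls numbered 46 and rises 3 among 55 members, 6 did not pass, and the list median was −0.62, −0.61 and 0.01, against −0.02, −0.01 and 0.00 for all genes. Oas2, which activates RNase L, had −1.78, −1.71 and 0.28, a mean of −1.74 ± 0.04 (SE, n = 2, adjusted p = 1.0e-04), though its other probe gave −0.42. Zbp1, a sensor of Z-form nucleic acid, had −1.57, −1.62 and 0.09, and Igtp, an immunity-related GTPase, had −1.46, −1.50 and 0.21. The master regulator Irf7 had −1.35, −1.33 and −0.03, from signals of 579 in Cy5 and 3170 in Cy3 on replicate 1, 558 and 2820 on replicate 2, and 32.5 and 101 on replicate 3. Isg15, a ubiquitin-like modifier, had −1.25, −1.26 and 0.02, and its signals were 1250 in Cy5 and 6200 in Cy3 on replicate 1 but 29.0 and 92.0 on replicate 3. Trim25, a ubiquitin ligase, rose, with 0.49, 0.43 and −0.13, but lay at −0.22 with median centring. Ifnb1, the interferon gene itself, was not well above background in either channel of any of the 3 arrays, so no fold is given. In untreated cells of the slide of replicate 3 this list was already dim, as given above.

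The interferon-stimulated response element, searched as GAAA and GAAA with any 2 bases between them, was found before the start of 19 of 44 members with a promoter (43.2%), against 3.46% of all genes. Of the 19, 15 fell and 1 rose, and of the other 25, 22 fell and 2 rose. The stretches of Isg15 (chr4:156200862-156200921, minus strand), Ifit1 (chr19:34640760-34640819, plus strand) and Rsad2 (chr12:26456538-26456597, minus strand) are shown because these are classical members that fell. Capitals mark the first match, which in Ifit1 and Rsad2 is on the opposite strand. Isg15 held 3 matches and Ifit1 held 2, and their further matches stand in lower case.
Isg15: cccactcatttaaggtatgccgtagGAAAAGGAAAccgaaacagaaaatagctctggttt
Ifit1: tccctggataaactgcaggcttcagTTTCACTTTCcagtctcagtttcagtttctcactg
Rsad2: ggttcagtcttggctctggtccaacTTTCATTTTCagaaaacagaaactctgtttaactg
Ifit1, an inhibitor of viral translation, had −0.84, −0.71 and 0.11, and the antiviral enzyme gene Rsad2 had −0.65, −0.57 and −0.22.

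Antigen presentation by class I molecules followed. Of 20 class I pathway genes 16 fell and 1 rose, with list medians of −0.43, −0.46 and 0.02. The heavy chain gene H2-K1 had −0.65, −0.66 and 0.11, the light chain gene B2m had −0.54, −0.52 and 0.07, and the immunoproteasome gene Psmb8 had −0.63, −0.55 and −0.19. Class I genes are near-identical copies, so their probes may share transcripts. The class II invariant chain gene, Cd74, had −1.22, −1.20 and −0.17, and 8 of 13 class II pathway genes fell and 1 rose.

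Sterol genes moved in opposite directions by role. Of 25 cholesterol synthesis genes 19 rose, 2 fell and 4 did not pass, with list medians of 0.51, 0.41 and 0.03. Fdft1, which makes squalene, had 1.51, 1.44 and −0.14, Msmo1, a later demethylation enzyme, had 1.42, 1.39 and −0.15, and Idi1 had 1.28, 1.17 and 0.08. Hmgcs1, which makes the precursor of mevalonate, had 1.06, 1.04 and −0.02. Relative to all genes, the list median of replicates 1 and 2 was 0.45 as reported and 0.26 with median centring. TCACNCCAC, a sterol regulatory element bound by SREBP, was found before 1 of 17 members (5.88%) against 1.22% of all genes, in Hmgcs1 (chr13:119690189-119690247, plus strand).
Hmgcs1: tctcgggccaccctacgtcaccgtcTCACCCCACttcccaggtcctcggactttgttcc
Among 17 targets of the liver X receptors and export genes, 10 fell and 4 rose. Abcg1, the exporter of cholesterol to lipoproteins, had −2.38, −2.32 and 0.32, from signals of 352 in Cy5 and 4100 in Cy3 on replicate 1 and 360 and 3750 on replicate 2. Its mean of −2.35 ± 0.04 (SE, n = 2, adjusted p = 6.4e-05) was one of the 10 lowest of all genes tested. Mylip, a ubiquitin ligase, had −1.31, −1.14 and 0.19, and Smpdl3a had −0.94, −0.94 and 0.08. Plin2, which coats lipid droplets, had −1.68 and −1.68 and no value on replicate 3, since its spots there were left out.

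Lysosomal genes fell on the first slide. Of 43 hydrolase genes 33 fell, 3 rose and 7 did not pass, with list medians of −0.51, −0.48 and 0.00. Psap, the precursor of the saposins that help degrade sphingolipids, had −1.63, −1.54 and −0.05. Lipa, the acid lipase, had −1.53, −1.61 and −0.01, and Neu1, a sialidase, had −1.39, −1.40 and 0.27, while its other probe gave −0.36. The cathepsin genes Ctsd and Ctsb had means of −1.13 and −0.97 on replicates 1 and 2 and −0.24 and 0.47 on replicate 3, and 9 of 13 cathepsins tested fell and 1 rose. Of 31 membrane protein genes 19 fell and 3 rose, among them Gpnmb with −1.36, −1.39 and 0.03. Of 19 subunits of the proton pump that acidifies the lysosome 14 fell and 2 rose, and Atp6v1e1, with −1.39, −1.34 and −0.26, was below 0 on all 3 arrays. Autophagy genes, with 17 falls and 5 rises among 30, included the cargo receptor gene Nbr1 (−0.91, −0.92 and 0.21) and Gabarap (−0.59, −0.64 and −0.33).

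The element CLEAR, bound by the lysosomal regulators TFEB and TFE3 and searched as TCACGTGA, was present before 5 of 33 hydrolase genes with a promoter (15.2%), against 0.907% of all genes. Of these 5, 3 fell and none rose, and of the other 28, 21 fell and 3 rose. Gla, encoding alpha-galactosidase (chrX:134601201-134601255, minus strand), and Ctsa, encoding protective protein (chr2:164833735-164833772, plus strand), are shown as members that fell.
Gla: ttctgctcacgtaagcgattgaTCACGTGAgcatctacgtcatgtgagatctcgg
Ctsa: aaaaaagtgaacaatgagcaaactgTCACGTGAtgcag
Gla had −1.08, −0.95 and −0.31, below 0 on all 3 arrays, and Ctsa had −0.67, −0.75 and −0.05.

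Antioxidant and surface genes were mostly lower as well. Of 30 targets of NRF2, the regulator of the antioxidant response, 20 fell and 5 rose. Hmox1, which degrades heme, had −0.96, −0.97 and 0.09, the glutathione synthesis gene Gclm had −0.93, −1.06 and −0.02, and Prdx1, a peroxidase, had −0.92, −0.88 and −0.02. The iron exporter gene Slc40a1 had −1.58, −1.68 and 0.20, while the transferrin receptor gene Tfrc, which brings iron in, rose, with 1.00, 0.97 and −0.09. Of 29 macrophage identity genes 20 fell and 2 rose. Lyz2, lysozyme, had −1.61, −1.67 and 0.00, the pore-forming protein gene Mpeg1 had −1.24, −1.22 and −0.06, and the lineage factor gene Spi1 had −0.89, −0.73 and −0.02. Of 27 uptake receptors 18 fell and 6 rose, and the inhibitory receptor gene Sirpa had −1.12, −1.14 and 0.07 while the fibronectin receptor subunit gene Itga5 had 0.96, 0.87 and 0.04. In these bulk samples, fewer cells of a type and less RNA per cell cannot be told apart.

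**Figure D3:**
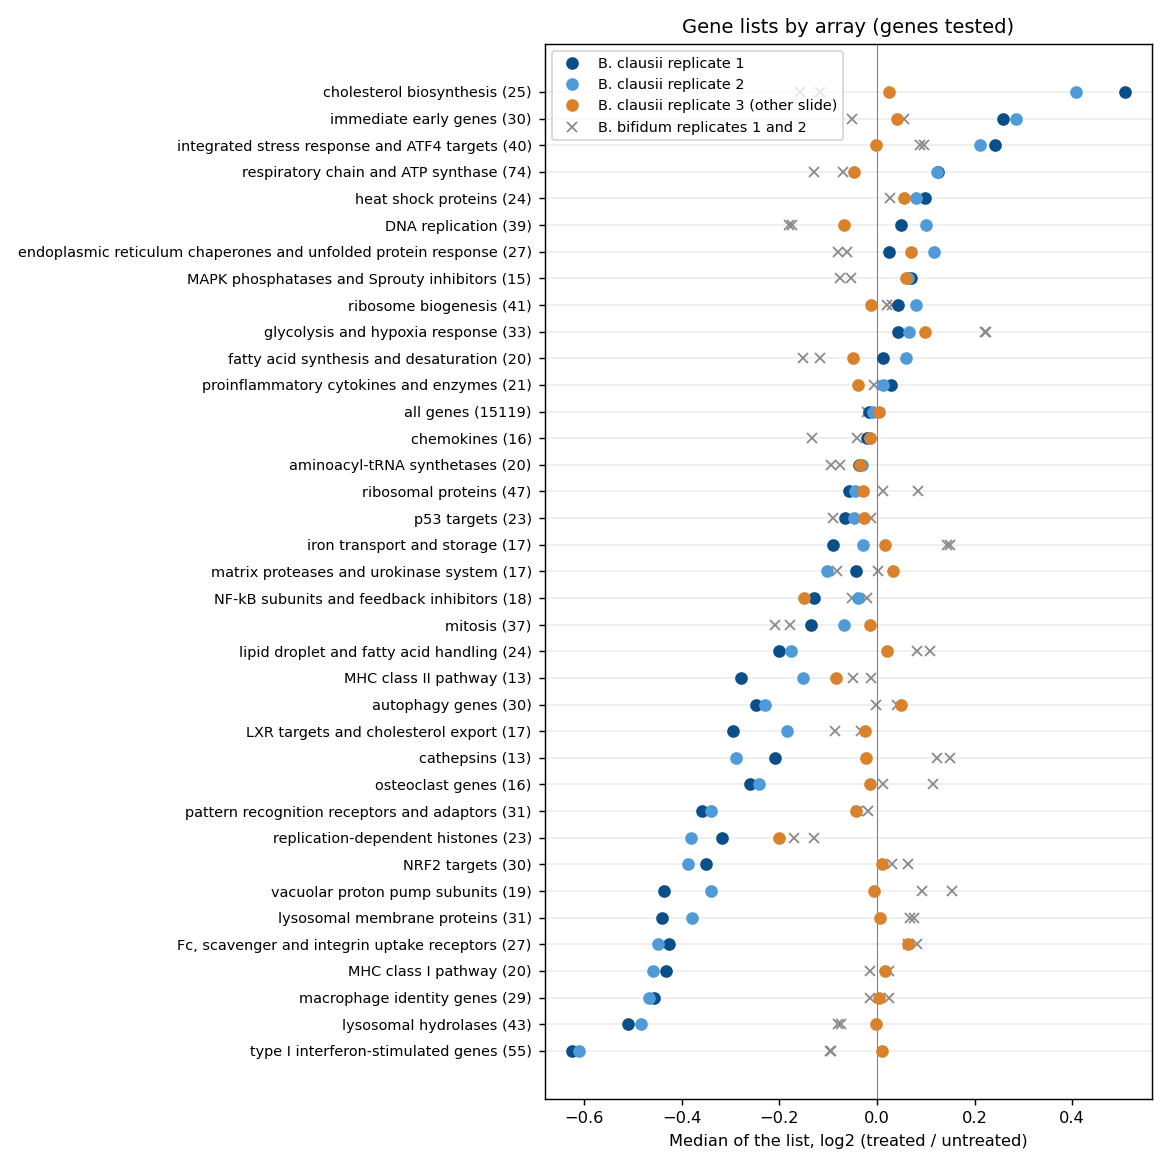
Median log2 ratio of treated over untreated cells (x axis) for 36 gene lists and all genes (y axis, with the number tested). Filled circles are the 3 B. clausii arrays and crosses the B. bifidum arrays on the slide of replicates 1 and 2. The interferon-stimulated list lies at −0.62 and −0.61 on replicates 1 and 2 and the cholesterol synthesis list at 0.51 and 0.41, while replicate 3 lies near 0 for both.

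Metabolic and growth lists had members on both sides. Of 33 glycolysis and hypoxia genes tested, 13 rose and 13 fell. Ankrd37 had 1.28, 1.37 and −0.29, Vegfa had 0.73, 0.70 and 0.14, and the glyceraldehyde phosphate dehydrogenase gene Gapdh had −0.48, −0.48 and 0.15. Of 74 respiratory chain and ATP synthase genes 36 rose and 20 fell, with a list median relative to all genes of 0.14 as reported and −0.20 with median centring. Of 39 DNA replication genes 17 rose and 14 fell, with 0.06 as reported and −0.32 with median centring. The sliding clamp gene Pcna had 0.99, 1.02 and 0.28. Of 37 mitosis genes 17 fell and 5 rose, among them the kinesin gene Kif20a with −0.72, −0.74 and −0.01. Of 23 replication-dependent histone genes 14 fell and 3 rose.

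The remaining lists stand here by their counts, beside 25.7% rises and 30.2% falls over all genes. Rises and falls numbered 8 and 8 of 18 for subunits and inhibitors of NF-kB, 4 and 3 of 15 for MAP kinase phosphatases and Sprouty inhibitors, and 11 and 3 of 24 for heat shock proteins. They were 9 and 9 of 20 for fatty acid synthesis, 5 and 12 of 24 for lipid droplets and fatty acid handling, and 5 and 6 of 17 for iron transport and storage. Ribosomal proteins had 14 and 21 of 47, where 28 members had saturated spots on that slide, ribosome biogenesis 17 and 13 of 41, and p53 targets 6 and 9 of 23. Osteoclast genes had 2 and 10 of 16 and matrix proteases 2 and 6 of 17. The mitochondrial heat shock gene Hspd1 rose, with 0.98, 1.00 and −0.01, though its other probe gave 0.08, while the cytosolic chaperone gene Hspa8 fell, with −0.77, −0.82 and −0.23.

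Several of the largest changes lay outside the lists. Adgre5, an adhesion receptor of leukocytes (CD97), had 2.63, 2.59 and 0.07, a mean of 2.61 ± 0.05 on replicates 1 and 2 (SE, n = 2, adjusted p = 6.4e-05), from signals of 978 in Cy5 and 274 in Cy3 on replicate 1. Rmrp, the RNA of a mitochondrial and nucleolar RNase, had 2.05, 2.09 and −0.08, and Neat1, the scaffold RNA of paraspeckles, had 1.95, 1.93 and −0.30. With B. bifidum replicates 1 and 2, Rmrp had 1.27 and 1.17 and Neat1 had 0.78 and 0.82. Among the falls, Selenbp2 and Selenbp1, which encode selenium-binding proteins and are close paralogs whose probes may share transcripts, had −2.58, −2.62 and 0.35, and −2.32, −2.33 and 0.16. Tecpr1, an autophagy protein of lysosomes, had −2.20, −2.13 and 0.05. Cd5, a lymphocyte surface receptor, had −1.95, −1.92 and −0.02, at signals of 378 in Cy5 and 3240 in Cy3 on replicate 1. Treml1 had −2.04, −1.93 and 0.03, and was not well above background in Cy5 of replicate 1. Car6, a carbonic anhydrase, had −1.97, −1.77 and −0.18. It was not well above background in Cy5 of replicates 1 and 2, so the size of its fall is not a measured fold.

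**Figure D4:**
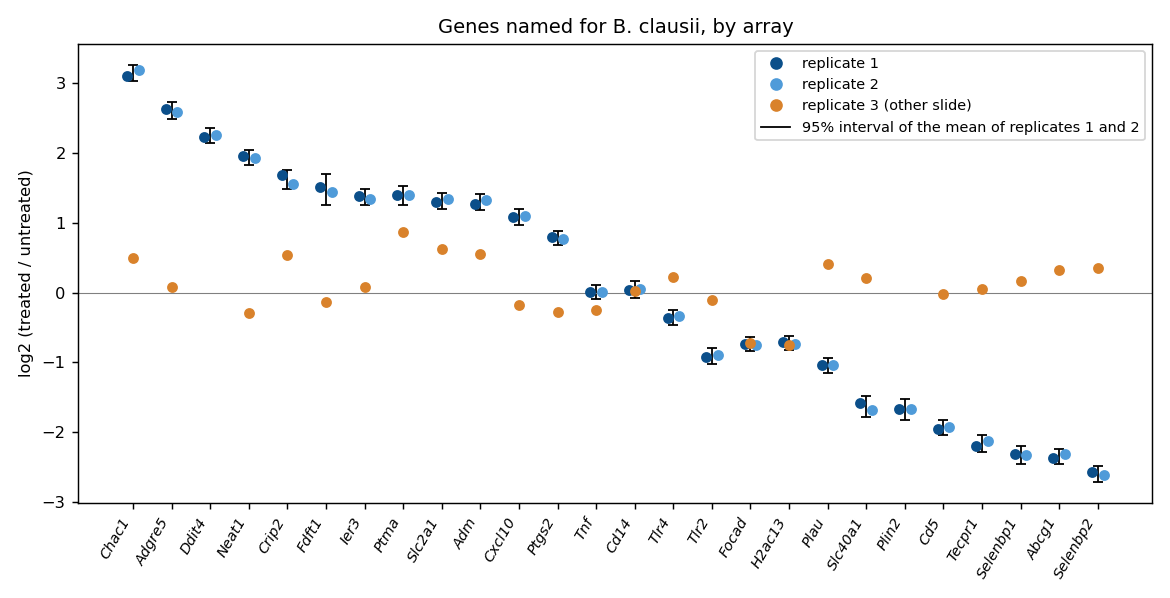
Log2 ratios of treated over untreated cells (y axis) for 26 named genes (x axis) on replicates 1, 2 and 3. Bars are 95% intervals of the mean of replicates 1 and 2 from limma. Chac1 has 3.11, 3.19 and 0.49, Selenbp2 has −2.58, −2.62 and 0.35, and Focad has −0.73, −0.75 and −0.72.

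A smaller set passed over all 3 arrays. The test over the 3 arrays, with the spread shared by all 8, called 707 of 15132 genes (4.67%), of which 318 rose (2.10%) and 389 fell (2.57%). Of these, 684 were measured on all 3 arrays, and all 684 had the same sign on each, which the test itself favours. Without replicate 1, and likewise without replicate 2, limma called 0 genes (1873 and 1891 had an unadjusted p under 0.05). Leaving out replicate 3 gave 5461. The count was 6 without either L. acidophilus array, 7 and 6 without B. bifidum replicates 1 and 2, and 1642 without B. bifidum replicate 3. With the scanner's processed signals it was 43, and with no background correction 54. Of the 677 called genes measured on all 8 arrays, 392 (57.9%) had the same sign on all 8, against 11.8% of all genes. The test favours this share too, since called genes already had the same sign on the 3 B. clausii arrays. For the 392, a dye effect of the probe and a response to bacteria cannot be told apart.

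Among the rises, the prothymosin alpha gene Ptma, of a small nuclear protein, had 1.39, 1.40 and 0.86 (mean 1.22 ± 0.11, SE, n = 3, adjusted p = 0.0045). Dhx9, an RNA helicase, had 1.15, 1.19 and 0.64, and the glucose transporter gene Slc2a1 had 1.29, 1.33 and 0.62. Adm, the vasodilator adrenomedullin, had 1.27, 1.33 and 0.55, and Alkbh5, an RNA demethylase, had 1.02, 1.00 and 0.52. Crip2, a LIM domain protein, had 1.69, 1.55 and 0.54 but was not well above background in either channel of replicate 3. Replicate 3 was the lowest array for each of these 6. The following falls were picked for a large ratio of the same sign on all 3 arrays. That replicate 3 was near the other arrays therefore follows from the choice. The histone genes H2ac13 and H2ac15, near-identical copies that may share transcripts, had −0.71, −0.73 and −0.76, and −0.68, −0.70 and −0.75, with means of −0.73 ± 0.06 and −0.71 ± 0.06 (SE, n = 3, adjusted p = 0.0045 for both). Focad had −0.73, −0.75 and −0.72, and Stxbp2, a regulator of granule release, had −0.78, −0.63 and −0.63. B. bifidum replicates 1 and 2 gave −0.85 and −0.81 for H2ac13 and 0.78 and 0.95 for Ptma. By list, 7 of 27 chaperone genes of the endoplasmic reticulum and 4 of 25 cholesterol synthesis genes rose over the 3 arrays and 0 fell, 7 of 24 histone genes, 7 of 43 hydrolase genes and 6 of 55 interferon-stimulated genes fell and 0 rose, against 2.10% and 2.57% of all genes. Tlr2 passed this test too, at −0.64 ± 0.15 (SE, n = 3, adjusted p = 0.0497).

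The comparison with B. bifidum on the same slide shows where B. clausii stood apart from another bacterium, free of the slide and of any dye effect that is constant. Limma called 4548 of 15098 genes (30.1%), of which 2302 were higher (15.2%) and 2246 lower (14.9%) with B. clausii, and 221 differed by more than 1 on the log2 scale. The count depends on the normalization, since it was 349 with the scanner's processed signals, 272 with the authors' deposited values, and 0 with median centring (limma, 737 genes at an unadjusted p under 0.05). It was 2453 without B. bifidum replicate 1 and 2389 without B. bifidum replicate 2. Chac1 differed by 3.00 ± 0.06, Adgre5 by 2.38 ± 0.07 and Ddit4 by 1.76 ± 0.06 (SE, n = 2 against 2, adjusted p of 3.6e-04, 3.6e-04 and 5.1e-04). Ier3 had 1.39 and 1.34 with B. clausii and −0.55 and −0.64 with B. bifidum, and Cxcl10 had 1.08 and 1.09 against −0.59 and −0.49. The chemokine gene Ccl4 had 0.58 and 0.62 against −1.31 and −1.31, and Zbtb32, a transcriptional repressor, 0.88 and 0.98 against −1.41 and −1.38. In each of these 4 genes the strains lay on opposite sides of 0. Under median centring, however, Ccl4 lay at −0.06 with B. clausii, or 0.24 relative to all genes. Slc4a7, a bicarbonate transporter, and Pa2g4, a growth regulator, were higher by 1.85 and 2.00 and were low with B. bifidum, at −1.51 and −1.38, and −1.86 and −1.87.

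Genes lower with B. clausii than with B. bifidum included Selenbp1 (a difference of −2.69 ± 0.07), Selenbp2 (−2.67 ± 0.06), Plau (−2.19 ± 0.06), Abcg1 (−2.17 ± 0.06) and Slc40a1 (−2.15 ± 0.08), each with an adjusted p of 6.1e-04 or smaller (SE, n = 2 against 2). Plau, the urokinase gene, had −1.04 and −1.04 with B. clausii and 1.18 and 1.11 with B. bifidum. Plin2 had −1.68 and −1.68 against 0.39 and 0.59, and Hmox1 −0.96 and −0.97 against 0.81 and 0.99. Fam20c, a secretory pathway kinase, had −1.73 and −1.75 against 0.75 and 0.65, and Fnip2, a partner of folliculin, −0.60 and −0.66 against 1.42 and 1.44. All 5 had opposite signs with the strains.

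**Figure D5:**
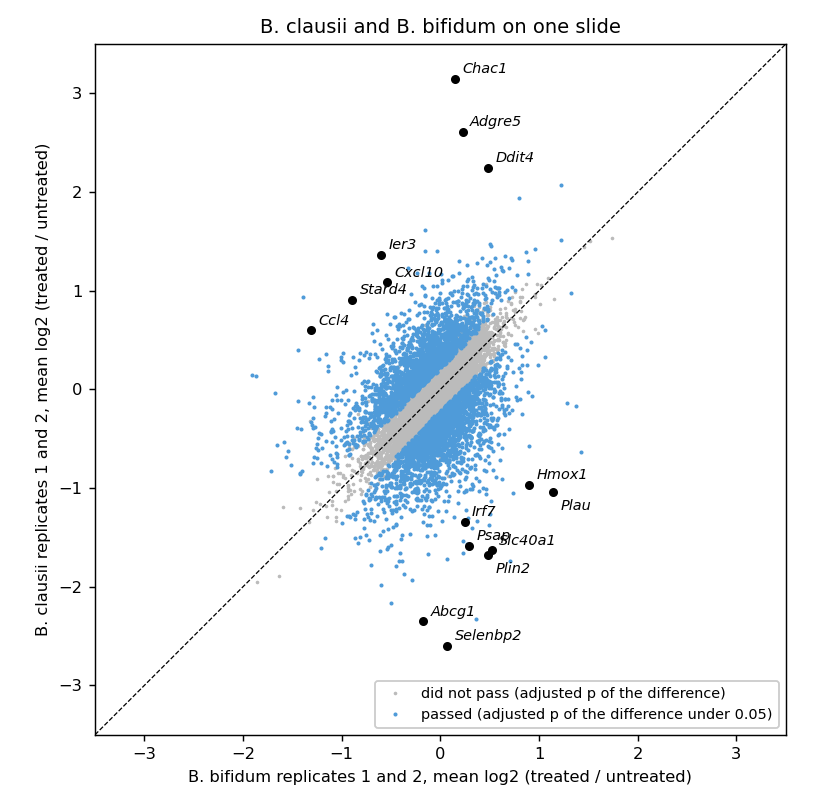
Mean log2 ratio of treated over untreated cells with B. bifidum replicates 1 and 2 (x axis) and with B. clausii replicates 1 and 2 (y axis), all on one slide. Each point is a gene, blue where the difference passed (adjusted p under 0.05), and the dashed line marks equal ratios. Chac1 and Adgre5 lie far above the line and Plau, Plin2 and Slc40a1 below it, on the other side of 0.

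Several lists differed from B. bifidum mostly in the direction of their B. clausii change. The counts below stand beside 15.2% higher and 14.9% lower over all genes, and no gene passed with median centring. Of 54 interferon-stimulated genes tested, 37 were lower with B. clausii and 1 was higher, with list medians of −0.09 and −0.10 for B. bifidum. Of 43 lysosomal hydrolase genes 27 were lower and 1 higher, and of 19 proton pump subunits 14 were lower and 2 higher. Of 25 cholesterol synthesis genes 20 were higher and 0 lower, with medians of −0.16 and −0.12 for B. bifidum, and Stard4, a sterol carrier, had 0.91 and 0.91 against −0.98 and −0.81. Of 74 respiratory chain genes 33 were higher and 3 lower, though the B. clausii change of this list relative to all genes turned from 0.14 to −0.20 with median centring. Integrated stress response genes differed both ways, with 13 of 40 higher and 8 lower. These counts use the same B. clausii arrays as the test against untreated cells and are not independent of it.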

How the data were processed

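RNA of treated cells (Cy5) and untreated cells (Cy3) was hybridised on Agilent whole mouse genome arrays of 45018 spots. The scanner files hold background and spot intensity per channel as deposited, extracted with Agilent Feature Extraction 10.7.3.1 per the file headers and 10.5.1.1 per the submitters' processing notes, on array design annotations of mm9. The authors' deposited value table holds log10 ratios of Cy5 over Cy3, equal to the scanner's own log ratio within 0.005, not centred further. Its direction was read from that match and the dyes in the labels.

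Median intensities were background-corrected (normexp, offset 50) and normalized within each array (loess) with limma 3.58.1 in R 4.3.3. Control, outlier and saturated spots had weight 0 and were left out. Repeated spots were averaged, 28566 of 41174 probes were kept (well above background in either channel, on 2 or more of 8 arrays), and each gene took its brightest probe, preferring one never saturated. Tests used lmFit and eBayes with Benjamini-Hochberg adjustment at 0.05. The number of arrays limits the precision.

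Named genes are 12 fixed genes, the largest changes in each test and leading members of 36 gene lists. Members, lists and rules were chosen with earlier results of these data known. On simulated arrays without a slide effect, 67, 67 and 66 genes were changed by 0.5, 1 and 2 on the log2 scale. The test on replicates 1 and 2 recovered 65.7%, 95.5% and 100% of them. Many more genes passed on the real arrays, so these shares do not measure recovery there. Alternatives were the background correction, signals, normalization, probe filter, probe choice, spread, blocks, weights and arrays in the fit. Promoters came from RefSeq. Results for withheld items are not reported here.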

Additional observations from a re-analysis of the deposited data

Results flagged for a closer look

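The 10 genes below had the largest differences between the slide of B. clausii replicates 1 and 2 and the slide of replicate 3 among those that passed limma's test of that difference, in which replicate 3 is a single array. Chac1 differed by 2.657, Adgre5 by 2.537 and Neat1 by 2.236 on the log2 scale, all with high ratios on replicates 1 and 2. Selenbp2 differed by −2.953, Abcg1 by −2.667 and Selenbp1 by −2.485, all with low ratios on replicates 1 and 2.

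The other four genes lay farther from 0 on replicate 3 than on replicates 1 and 2. Grn, the progranulin gene, differed by 2.849, with 0.98, 0.97 and −1.88 on replicates 1 to 3. Its B. bifidum arrays had 1.24, 1.40 and −2.32 and its L. acidophilus arrays −1.49 and −1.57, so the sign followed the slide on all 8 arrays, and its probes disagreed in sign. Apob differed by −2.791, with −0.08, −0.06 and 2.72, and Abca8a by −2.551, with 0.15, 0.26 and 2.76. Neither was well above background in Cy3 of replicate 3, so the size of both differences is not a measured fold. Olfr1183 differed by 2.495, with 0.02, 0.27 and −2.35, and was not well above background on replicates 1 and 2. On the other 5 arrays Apob lay between −0.26 and 0.05 and Abca8a between −0.16 and 0.14.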

How the results depend on the processing

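The count of 707 genes over the 3 arrays depended on most choices. It was 54 with no background correction, 43 with the scanner's processed signals, 70 with the authors' deposited value table, 0 with median centring (limma, 4823 at an unadjusted p under 0.05), 393 with the mean of a gene's probes, 67 with a robust fit and intensity trend, and 18 also past a log2 ratio of 1. It was 3783 with the slide as a block, 8802 with array weights (0.13 for replicate 3), 0 with only the B. clausii arrays (2976 unadjusted) and 0 with arrays of 1 strain on 1 slide averaged (665 unadjusted). Leaving out each array gave 0 to 5461. The count of 8455 on the slide of replicates 1 and 2 was 5516 with processed signals, 5224 with the value table, 4026 with median centring and 312 past a log2 ratio of 1. Leaving out an array gave 6875 to 7905. The slide difference of 5868 genes became 37 with median centring (4 higher, 33 lower) and 398 past a log2 ratio of 1, and 4443 to 5868 without an array. The strain difference of 4548 genes became 349 with processed signals, 272 with the value table, 0 with median centring and 221 past a log2 ratio of 1, and 2389 to 3992 without an array. The cause of these shifts was not tested. The share of genes with the same sign on replicate 3 (50.1%) was 51.67% where that array was well above background, 47.65% in its first 120 rows of such spots and 47.73% past a log2 ratio of 1, all 3 chosen after seeing the data. With median centring 6 named genes that had passed changed sign on replicates 1 and 2, and 42 more kept their sign but no longer passed. The 6 were Atf4 (−0.0788), Ccl2 (−0.51), Ccl4 (−0.0635), Pa2g4 (−0.55), Slc4a7 (−0.29) and Trim25 (−0.22). Relative to the median of all genes they lay at 0.23, −0.20, 0.24, −0.25, 0.02 and 0.09, in this order. Of genes that had not passed, Tnf (−0.66), Cd14 (−0.58), Il10 (−0.10) and Il1b (0.09) also changed sign with median centring. Other probes gave smaller values of the same sign for several genes, such as 0.62 for Ptma, −0.62 for Plau, 0.42 for Ptgs2, 0.54 for Idi1, −0.56 for Gpnmb, −0.72 for Mpeg1 and −0.45 for Hspa8.

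With the replicate number as a block, the counts were 4271 over the 3 arrays, 8686 on the slide of replicates 1 and 2 and 4374 for the strain difference. The deviations of same-numbered B. clausii and B. bifidum arrays correlated at 0.41, 0.29 and 0.46 over both slides, where replicate 3 of both is on the other slide, and at 0.08 within the slide of replicates 1 and 2. With L. acidophilus they correlated at −0.09 to −0.06. As not every pair was above 0.1, the numbers were not taken as pairs.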
